A study of Mus musculus with 4 samples.

Results

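The genes described here encode the proteins of the cytosolic ribosome in RIP1-Tag2 (RT2) insulinomas, the insulin-producing tumors of a transgenic mouse. A gene was taken as a member when its symbol on the array was Rpl or Rps followed by a number and at most a letter a, l or x and a further digit, or was Rpsa or a P stalk gene of the Rplp family, and the Rps6k kinases were left out. The rule did not use any measured value. It found 60 of the 18091 genes of the array, 34 of the large subunit and 26 of the small subunit. Of these, 53 members (29 large, 24 small) were above background on both arrays of at least 1 group and entered the test with 10370 genes in all, and 51 were above background on all 4 arrays.

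RT2 mice express the SV40 large T antigen from an insulin promoter, so that islet beta cells form tumors. Mice were treated from 10 weeks of age, 3 times a week by intraperitoneal injection, with PBS or with 10 mg/kg sEphB4-Alb, the soluble extracellular part of the receptor EphB4 fused to albumin, which blocks EphB4 and Ephrin-B2 signaling. Tumors were taken at 13.5 weeks, and all mice had been given 5% sugar in their water from 12 weeks. RNA of 2 samples per group was hybridized to Illumina MouseRef-8 BeadChips, which asked how tumor gene expression differed after EphB4 blockade. No source used here says whether a sample was a single tumor or a pool of tumors, and each is called a tumor below. The arrayed mice carried both Dll4 alleles according to the study's methods, while the labels name CD1 together with C57/BL6 as their background and the series' own design text names C57/BL6 alone. Each group had 6 treated mice. Nothing in the labels says that the 2 arrayed samples of a group came from separate mice. Every p-value below thus measures only the spread between these samples.

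The cytosolic ribosome joins amino acids into protein, and each of its subunits is an assembly of ribosomal RNA and a fixed set of small basic proteins. The small subunit reads the messenger RNA and the large subunit forms the peptide bond. In vertebrates many of the messenger RNAs of these proteins start with a C followed by a run of pyrimidines, the 5′ TOP motif, through which TOR signaling controls their translation. The transcripts are among the most abundant of a growing cell, and most of the genes have processed pseudogenes in the mouse genome, so a probe may also bind transcripts of near-identical copies.

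The start region is shown for 5 members that the results turn on, the most displaced genes in each direction and genes with a long and a short pyrimidine run, from RefSeq windows of GRCm38.p6. Each line runs from 60 bases before to 20 bases after the annotated start, and the capitals mark the longest run of C and T that lies within 5 bases of the start.
Rpl7a (chr2:26910747-26910826, plus strand): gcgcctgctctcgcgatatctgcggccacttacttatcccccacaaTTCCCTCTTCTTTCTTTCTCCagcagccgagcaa
Rps6 (chr4:86857348-86857427, minus strand): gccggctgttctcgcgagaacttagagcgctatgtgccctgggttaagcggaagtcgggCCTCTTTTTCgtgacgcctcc
Rpl27 (chr11:101442185-101442264, plus strand): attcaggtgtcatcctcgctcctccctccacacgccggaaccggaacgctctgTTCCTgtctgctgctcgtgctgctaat
Rps2 (chr17:24720003-24720082, plus strand): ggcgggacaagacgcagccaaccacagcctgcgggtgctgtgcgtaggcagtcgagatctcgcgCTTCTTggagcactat
Rpl23 (chr11:97782420-97782499, minus strand): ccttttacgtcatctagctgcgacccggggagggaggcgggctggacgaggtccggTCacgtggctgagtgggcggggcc
The run was 21 bases long in Rpl7a, 10 in Rps6, 6 in Rps2, 5 in Rpl27 and 2 in Rpl23. Start windows were matched for 49 of the 60 members by symbol, and for the 8 members with several windows the window listed first was used. A run of at least 8 such bases lay within 5 bases of the start in 36.7% of members and in 9.63% of all 27025 symbols with a window, and the median run was 6 bases against 3. The count of runs did not require a C at the start, so it is not a count of TOP motifs. The annotated first base was a C in 30.6% of members and 16.2% of all symbols. Over 250 bases before to 50 after the start, on both strands, the letters CCGGAAG, an ETS-type motif, were found in 42.9% of members and 9.12% of all symbols. The YY1-type letters AAGATGG, which can overlap the former by AAG, were found in 14.3% against 6.48%, the GC box GGGCGG in 63.3% against 35.9%, and the TATA box TATAAA in 8.16% against 14.2%. These matches describe letters in the windows and not binding sites.

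The members were bright genes, and their deposited signals differed from array to array together with those of all genes. In the order PBS tumor 1, PBS tumor 2, sEphB4-Alb tumor 1 and sEphB4-Alb tumor 2, the median signal over all genes was 136, 142, 160 and 169, and genes above background numbered 9308, 10326, 10759 and 11003. Over the members the median signal was 3194, 4071, 4907 and 6320. The deposited signal was highest in sEphB4-Alb tumor 2 for 52 of the 60 members and lowest in PBS tumor 1 for 51, and the median ratio of these arrays was 1.75 over all 60 members, 1.86 over the 53 tested members and 1.77 over all genes tested. Both treated tumors gave a higher deposited signal than both controls for 38 of the 53 tested members and for 77.3% of all genes tested. A share of the array's total signal is itself a scaling, by the sum of each array. It does not remove a gain that differs with brightness, as described below. By this measure the members held 4.54% and 4.38% of the summed signal of the controls (4.46% ± 0.111, SD, n = 2) and 4.12% and 3.92% of that of the treated tumors (4.02% ± 0.144, SD, n = 2). Both sEphB4-Alb tumors thus held a lower share than both PBS tumors. The order was the same after the lowest signal of each array was taken off every gene, with 5.75%, 5.13%, 4.70% and 4.38%. Shares of other bright genes were not computed.

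After quantile normalization, which gives all arrays the same distribution, no member passed the test. In limma the adjusted p-values of the 53 tested members lay between 0.742 and 0.995, and 0 of the 10370 genes passed an adjusted p of 0.05, a background of 0%. Without adjustment, 0 members were higher at p under 0.05 against 3.79% of all genes tested, and 4 members, Rps2, Rpl23, Rpl22 and Rps13, were lower against 2.67%. No member passed 2-fold with an unadjusted p under 0.05, which 1.15% of all genes did. With 2 tumors against 2, an exact two-sided permutation test of a single gene cannot give a p below 0.33.

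After quantile normalization most members lay slightly lower after sEphB4-Alb, a direction that turned with median scaling and without normalization, as given below. The fold change on the log2 scale was under 0 for 39 of the 53 tested members (73.6%) and for 52.4% of all genes tested. Its median was −0.13 over all 60 members, −0.09 over the large and −0.19 over the small subunit, and −0.02 over all genes tested. Both sEphB4-Alb tumors lay below both PBS tumors for 22 members (41.5%; background 20.8%) and above them for 5 (9.43%; background 18.5%), and the groups overlapped for 26. The sizes were small, since 39 members differed by under 1.2-fold and only Rps2, Rpl23 and Rps6 by over 1.5-fold, and the 95% interval held 0 for 49 of the 53. The highest of the 4 normalized values was in PBS tumor 1 for 25 members, in PBS tumor 2 for 20, in a treated tumor for 7 and shared for 1, while sEphB4-Alb tumor 2 was lowest for 24.

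**Figure D1:**
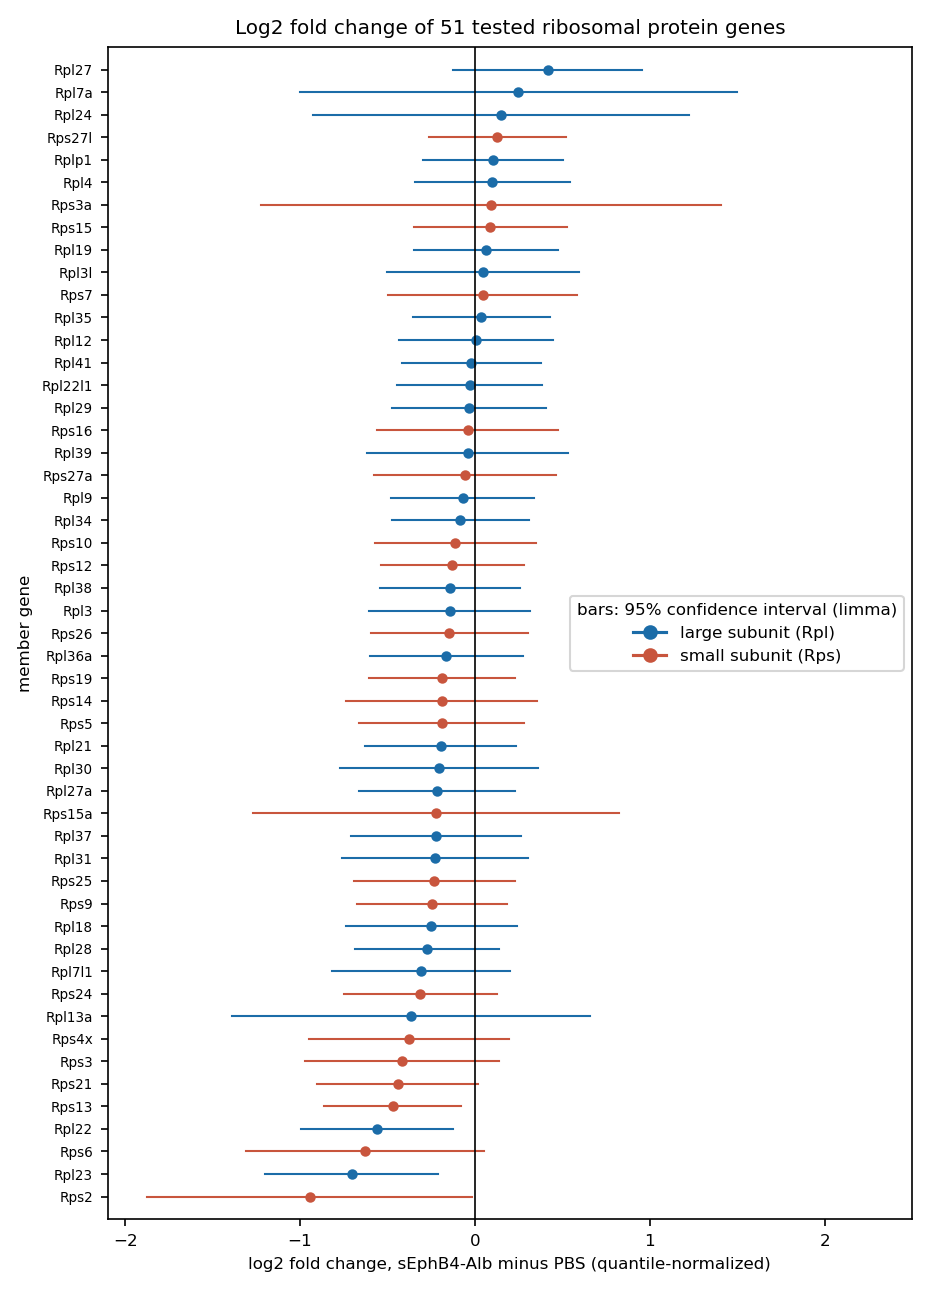
Log2 fold change (sEphB4-Alb minus PBS, quantile-normalized, horizontal axis) of 51 of the 53 tested ribosomal protein genes, with 95% confidence intervals from limma as bars and the subunit as color. Of the points 38 lie left of 0 under this scaling, against 39 of all 53 (10 of 53 with a common median, 1 without normalization), and 47 of the intervals drawn hold 0.

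The sign of these values changed with the scaling of the arrays. With quantile normalization fitted without the members, 39 of the 53 were below 0 and the groups lay apart downward for 25 and upward for 4 (52.5%, 20.8% and 18.4% of all genes tested). With cyclic loess these counts were 38, 22 and 5 (48.4%, 18.2% and 20.9%), and with a common 75th percentile 42, 27 and 2 (67.6%, 34.3% and 11.5%). With a common median 10 were below 0, 2 lay apart downward and 17 upward (20%, 5.96% and 37.6%). With no normalization 1 was below 0, 0 lay apart downward and 38 upward (2.09%, 0.473% and 73.7%). The median over all genes tested moved with them. It was −0.02, −0.02, 0.01, −0.17, 0.26 and 0.59 under quantile normalization, quantile normalization fitted without the members, cyclic loess, the 75th percentile, the median and no normalization. Relative to it, the median of all 60 members was −0.12, −0.14, −0.16, −0.09, −0.09 and −0.09. For the 53 tested members, which passed the same filter as the genes they are set against, it was −0.13, −0.17, −0.17, −0.04, −0.04 and −0.04. The last 3 scalings only shift whole arrays, so their relative values are the same by construction. The 2 quantile fits ranked the tested members almost alike (Spearman correlation 0.997). The median relative to all genes was thus below 0 throughout, but small where arrays were only shifted. There 31 of the 53 members lay below the median gene, against 39, 38 and 40 under the first 3 scalings.

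The gain in signal on the sEphB4-Alb arrays differed with the brightness of a gene, and the members were set beside genes of like brightness. Without normalization the median log2 fold change of all genes tested was 0.32 in the dimmest decile by mean signal and 0.76 in the brightest, which held 39 members with a median of 0.54. It did not rise all the way to the top, since the other genes had a median of 0.49 between 6 and 9 in mean normalized log2 signal, of 0.73 to 0.79 in the 4 ranges from 9 to 14 and of 0.48 between 14 and 16, where 8 members lay. In that decile the members' median was −0.15 against −0.03 under quantile normalization, −0.16 against 0.03 under cyclic loess and 0.21 against 0.43 under median scaling. The members thus lay below all genes of that decile whichever sign the values had. When genes were split by mean normalized log2 signal, 10 members between 12 and 13 had a median of −0.21 against −0.01 for 284 other genes, and 13 members between 13 and 14 had −0.19 against −0.03 for 103 others. In the 5 ranges from 9 upward the members' median was below that of the other genes under all 6 scalings, by −0.21 to −0.05. The scalings that only shift arrays give the same gap by construction. Between 6 and 9, with 7 members, the gap was −0.04 to 0.0032. These values describe the same 4 arrays and were not tested.

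**Figure D2:**
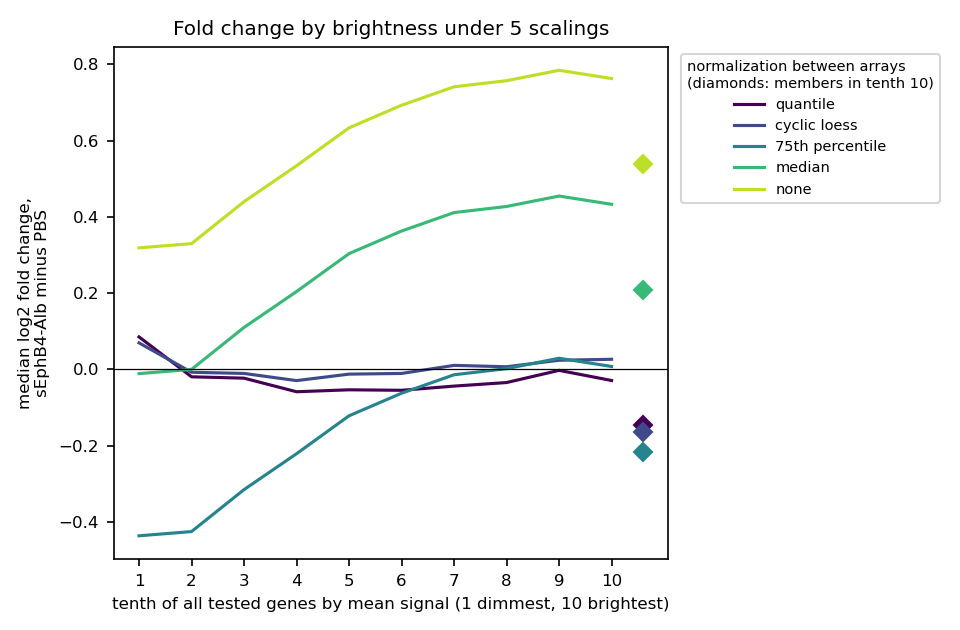
Median log2 fold change (sEphB4-Alb minus PBS, vertical axis) of all tested genes in each decile by mean signal (horizontal axis, 1 dimmest), 1 line per scaling, with diamonds for the 39 ribosomal protein genes in decile 10. The lines without normalization and with a common median or 75th percentile are the same curve shifted and climb with brightness. Every diamond lies below the end of its own line.

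Among the small subunit members, Rps2 had the lowest fold change. Rps2 encodes a protein at the entrance of the messenger RNA channel that is methylated by Prmt3. Its normalized log2 signal was 12.89 and 13.82 in the PBS tumors against 12.60 and 12.22 after treatment (13.35 ± 0.66 and 12.41 ± 0.26, SD, n = 2), a log2 fold change of −0.94 (SE 0.36; limma adjusted p = 0.742). Both treated tumors lay below both controls, but PBS tumor 2 stood apart from PBS tumor 1 by more than PBS tumor 1 did from the treated tumors. In deposited signal the treated tumors, at 7245 and 7449, lay between PBS tumor 1 at 4655 and PBS tumor 2 at 13373. Without PBS tumor 2 the log2 fold change was −0.48, and without PBS tumor 1 it was −1.38.

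Rps6 encodes the small subunit protein that S6 kinases phosphorylate downstream of TOR. Its normalized log2 signal was 13.21 and 12.57 in the controls and 12.36 and 12.17 in the treated tumors, a log2 fold change of −0.63 (SE 0.26; limma adjusted p = 0.742). The groups did not overlap, and the gap between them, from 12.57 to 12.36, was smaller than the distance between the PBS tumors. The fold change was −0.30 without PBS tumor 1 and −0.97 without PBS tumor 2.

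Rps13, whose protein takes part in a bridge between the subunits, had close replicates. Its values were 13.21 and 13.24 in the PBS tumors against 12.76 and 12.75 in the treated tumors, and the log2 fold change was −0.47 (SE 0.15; limma adjusted p = 0.742). Both treated tumors lay below both controls by many times the distance between replicates, and leaving out any of the 4 tumors gave −0.49 to −0.46. In deposited signal, Rps13 overlapped between groups, with 6105 and 8957 against 8111 and 10414. Rps21 read 13.44 and 13.38 against 13.12 and 12.83, a log2 fold change of −0.44 (SE 0.18). Further members with groups apart downward included Rps3, at the messenger RNA entrance (−0.42, SE 0.21), Rps24 (−0.31, SE 0.17) and Rps19 (−0.19, SE 0.16), the last 2 of which are mutated in human Diamond-Blackfan anemia.

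Some small subunit members lay above 0. Rps15 had a log2 fold change of 0.09 (SE 0.17) and Rps3a one of 0.09 (SE 0.51), and in both the groups overlapped. Rps3a, dim for a ribosomal protein gene, ranged from 7.36 in PBS tumor 1 to 8.79 in PBS tumor 2, with 7.95 and 8.38 in the treated tumors between them.

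In the large subunit, Rpl23 had the lowest fold change and Rpl22 the next. Rpl23 encodes a protein that can also bind Mdm2 outside the ribosome. It read 13.35 and 13.65 in the PBS tumors against 12.69 and 12.90 in the treated tumors (13.50 ± 0.21 and 12.80 ± 0.15, SD, n = 2), a log2 fold change of −0.70 (SE 0.19; limma adjusted p = 0.742). Rpl22, which mice can lack and still develop apart from a defect of T cells, read 11.55 and 11.47 against 11.05 and 10.85, a log2 fold change of −0.56 (SE 0.17; limma adjusted p = 0.742). In both genes the treated tumors lay below the controls by more than replicates differed. Leaving out any of the 4 tumors gave −0.81 to −0.57 for Rpl23 and −0.66 to −0.45 for Rpl22. On the deposited scale neither separated the groups, since Rpl23 read 6755 and 11691 against 7852 and 11551. Where arrays were only shifted, the log2 fold changes relative to the median gene were −0.49 for Rpl23 and −0.35 for Rpl22, beside −0.69 for Rps2, −0.44 for Rps6 and −0.27 for Rps13, so that the 5 genes lay below the median gene under each scaling.

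Rpl27 stood at the other end. It encodes a large subunit protein and read 13.45 and 13.06 in the PBS tumors against 13.78 and 13.56 in the treated tumors (13.26 ± 0.28 and 13.67 ± 0.16, SD, n = 2), a log2 fold change of 0.42 (SE 0.21; limma adjusted p = 0.746). Both treated tumors lay above both controls. Its deposited signal was 7355 and 8122 in the PBS tumors against 15939 and 18380 in the treated tumors, the steepest of all members on that scale, with a log2 difference of 1.15. Under each scaling its fold change stayed above that of the median gene, by 0.56 where arrays were only shifted. The value was 0.23 without PBS tumor 2 and 0.59 without PBS tumor 1.

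**Figure D3:**
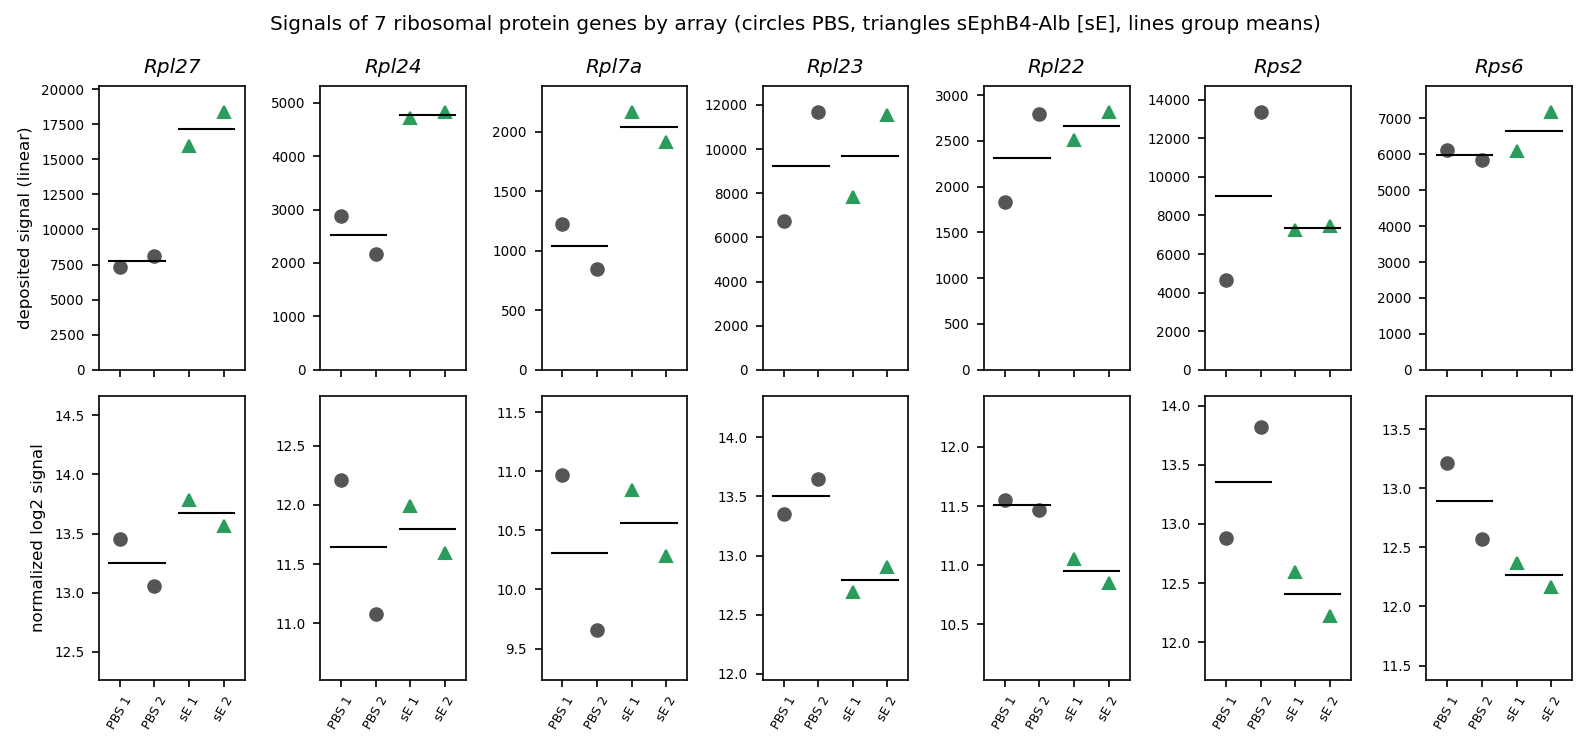
Deposited signal (upper row, linear) and quantile-normalized log2 signal (lower row) of 7 ribosomal protein genes in the 4 tumors, circles for PBS, triangles for sEphB4-Alb (sE) and lines for group means. Rpl27 separates the groups upward on both scales, while Rpl23, Rpl22, Rps2 and Rps6 separate them downward only after normalization.

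Several members differed more between the PBS tumors than between groups. Rpl7a, with the long pyrimidine run shown above, read 10.96 and 9.66 in the PBS tumors against 10.84 and 10.28 in the treated tumors, a log2 fold change of 0.25 (SE 0.48). Rpl24, whose loss on 1 allele gives mice the belly spot and tail phenotype, read 12.21 and 11.08 against 12.00 and 11.60 (0.15, SE 0.41). In both genes PBS tumor 1 was highest and PBS tumor 2 lowest, and without PBS tumor 2 their values turned to −0.41 and −0.42. Rpl13a, which can leave the ribosome to silence inflammatory messenger RNAs, read 10.76 and 9.70 against 9.68 and 10.05 (−0.37, SE 0.39). Rps15a read 8.30 and 9.42 against 8.78 and 8.49 (−0.22, SE 0.40), with PBS tumor 1 lowest and PBS tumor 2 highest. Over the tested members the median SD was 0.159 in the PBS group and 0.114 in the sEphB4-Alb group, against 0.195 and 0.111 over all genes tested.

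The brightest members were Rplp1, Rpl41 and Rpl9. Rplp1, which forms with Rplp2 the acidic stalk that receives elongation factors, gave the highest signal of all genes in sEphB4-Alb tumor 2, at 55159, and its log2 fold change was 0.10 (SE 0.15). Its normalized values, 15.31 and 15.40 against 15.43 and 15.49, did not overlap, but relative to the median gene its fold change was −0.12 where arrays were only shifted, and it was −0.17 under cyclic loess. Rpl41 (−0.02, SE 0.15) and Rpl9 (−0.07, SE 0.16) overlapped between groups. Genes this close to the top of the distribution have few ranks left to move in after quantile normalization.

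The dim members gave no usable change. Rpl14, Rpl17, Rpl39l, Rplp2 and Rps23 were not above background on any array, and Rpl6 and Rpsa, the laminin receptor that is also a small subunit protein, were above it on 1 array each. Their deposited signals lay between 112 and 148, close to the background thresholds of 133 to 146, which bounds what these probes could measure and says nothing of the transcripts. Rplp2 belongs to the same stalk as Rplp1 and read 131 and 116 against 121 and 143. The stalk base gene Rplp0 was not analysed here.

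The members included 5 paralogs that replace or resemble a common ribosomal protein. Rps27l, a p53 target, read 13.46 and 13.44 in the PBS tumors against 13.58 and 13.57 in the treated tumors, a log2 fold change of 0.13 (SE 0.15; limma adjusted p = 0.844), and its groups did not overlap. Rpl7l1 read 9.24 and 8.86 against 8.71 and 8.77 (−0.31, SE 0.20), apart downward by less than the PBS tumors differed. Rpl22l1, the paralog of Rpl22, was above background on 3 arrays and overlapped at −0.03 (SE 0.16). Rpl3l, known from striated muscle, was above background on 3 arrays at 0.05 (SE 0.21), while its common counterpart Rpl3 had −0.14 (SE 0.18). Rpl39l, known from the testis, was not tested, and Rpl39 had −0.04 (SE 0.22).

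Of the members 3 lie on the X chromosome. Rps4x read 14.15 and 14.47 in the PBS tumors against 14.13 and 13.74 (−0.38, SE 0.22), Rpl36a had a log2 fold change of −0.16 (SE 0.17) and Rpl39 one of −0.04. The groups also differed in genes that mark the sex of the animals, although the paper's legend on tumor volumes calls the mice of both treatments male. Xist, which coats the inactive X chromosome, had a log2 fold change of 2.34 (SE 0.35) and the Y-linked Ddx3y one of −2.31 (SE 0.33), both without overlap and both at a limma adjusted p of 0.713. Sex and treatment cannot be told apart in these 4 tumors, and the 3 X-linked members had fold changes below 0 beside the higher Xist, although Rpl36a and Rpl39 lay above the median gene where arrays were only shifted.

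Genes of the wider translation apparatus were taken from lists chosen with earlier results known. For translation factors the median was −0.20 over 37 tested of 40 in the table, with 30 below 0 and the groups apart downward for 15 (40.5%; background 20.8%) and upward for 1 (2.70%; background 18.5%). Eif3g, a subunit of the initiation factor that holds the small subunit, read 12.71 and 12.72 against 12.26 and 12.29 (−0.44, SE 0.15), Eif3d of the same complex had −0.67 (SE 0.27), and the elongation factor Eef1a1, itself encoded by a TOP messenger RNA, had −0.33 (SE 0.16). Against these, Eif2s3x, an X-linked subunit of the factor that carries the initiator tRNA, read 10.44 and 10.17 against 10.92 and 11.01 (0.66, SE 0.18). It was higher beside the higher Xist, and sex and treatment cannot be told apart for this gene either. Of the 37, 1 was higher and 1 lower at an unadjusted p under 0.05, and none passed after adjustment.

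Genes of mitochondrial ribosomal proteins, which serve translation of the mitochondrial genome, had a median of −0.05 over 68 tested of 72, with 10 apart upward and 10 downward (14.7% each, against the same backgrounds of 18.5% and 20.8%). Their difference from the cytosolic set was not tested. Ribosome biogenesis genes had a median of −0.08 over 30 tested, with 7 apart downward (23.3%) and 2 upward (6.67%), from Pes1 at −0.41 (SE 0.23) to the helicase Ddx21 at 0.28 (SE 0.23). Of the TOR regulators 13 were tested, with a median of −0.05. Among them Eif4ebp1, the repressor of cap-dependent translation that TOR inactivates, read 8.20 and 8.09 in the PBS tumors against 8.80 and 8.84 in the treated tumors, a log2 fold change of 0.68 (SE 0.16; limma adjusted p = 0.742). Its treated tumors lay above the controls by more than replicates differed.

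Markers of other cell types differed between the tumors, and in whole tumors fewer cells of a type and less RNA per cell cannot be told apart. Insulin genes were above background on all 4 arrays, with log2 fold changes of 0.82 (SE 0.22) for Ins1 and 0.69 (SE 0.20) for Ins2, while Slc2a2 and Pcsk1 of the same beta cell list were above it on none. Ins1 and Ins2 were the highest of the 16 tested beta cell markers, whose median was 0.15. Of the 16, 9 were above 0 and 7 below, with 6 apart upward (37.5%; background 18.5%) and 3 downward (18.8%; background 20.8%). Of 18 pancreatic acinar markers 17 were tested, and all of these were above 0 on the log2 scale, as were 47.6% of all genes tested. Both treated tumors lay above both controls for only 3 of the 17 (17.6% against 18.5% of all genes tested). The median over the 17 acinar markers was 1.83, with a median SD of 2.06 in the PBS group and 1.97 in the sEphB4-Alb group. Their summed signal was 5830, 32175, 28090 and 172248 in the order of tumors given above, all but 2 were above background on all 4 arrays, and their median level was 7.45, 10.45, 9.18 and 12.27. The members' median deviation from their own means ran 0.07, 0.04, −0.06 and −0.10 in the same order. The member shift and the acinar levels both placed PBS tumor 1 and sEphB4-Alb tumor 2 at opposite ends, and the part of acinar RNA in the member values was not tested. Most markers of some further cell types had higher values in the treated tumors. Of 10 duct markers 9 were above 0 and 8 had both treated tumors above both controls (80%; background 18.5%), with a median log2 fold change of 0.73 and median deviations of −0.49, −0.17, 0.35 and 0.36. Only 4 of them, Krt7, Krt8, Krt18 and Spp1, were above background on all 4 arrays, and of these Spp1 overlapped between groups. Sox9, Car2, Cftr, Krt19 and Muc1 entered the test only through the treated tumors, where they were high. Part of the upward count thus comes from the filter. On the deposited scale most genes were higher after treatment. There the summed signal of the duct list ran from 1511 to 2768 in the controls and from 4244 to 5609 in the treated tumors. Of 13 tested macrophage markers 11 were above 0 and 9 apart upward (69.2% against 18.5% of all genes tested). The macrophage median was 0.38, with summed signals of 6483 to 8461 against 13196 to 14178. Of 11 tested mural cell markers 9 were above 0 and 7 apart upward (63.6% against 18.5%). Among these 7, Pdgfrb and Notch3 entered the test only through the treated tumors. The mural cell median was 0.35, with summed signals of 2363 to 2922 against 4926 to 5172. None of these markers passed after adjustment, and their part in the member values was not tested. Cell cycle genes were high in PBS tumor 1 alone, with median deviations of 0.44, −0.18, −0.17 and −0.02, and their part was not tested either.

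**Figure D4:**
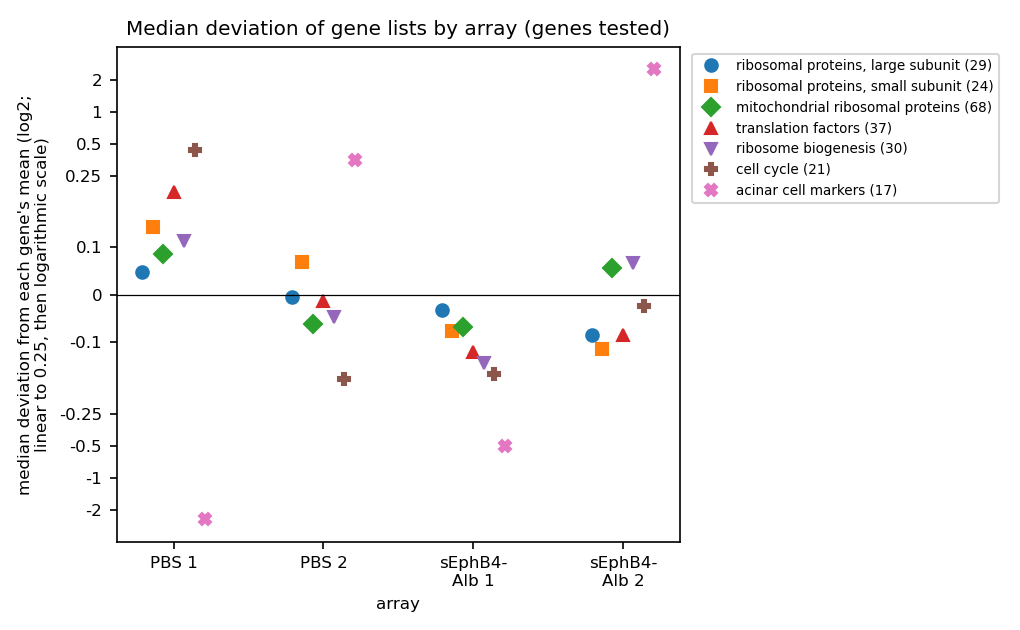
Median deviation of each gene list from its genes' own means (log2, vertical axis, linear up to 0.25 and logarithmic beyond) in the 4 tumors, with the number of genes tested in the legend. After quantile normalization both ribosomal subunits lie near or above 0 in the PBS tumors and below it in the treated tumors (the members' median fold change turned above 0 with a common median or no normalization), while acinar markers span −2.42 to 2.48.

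PBS tumor 1 stood apart from the other tumors over all genes tested, with correlations of 0.945 to 0.953 against 0.975 to 0.978 of PBS tumor 2 with the treated tumors and 0.979 between the treated tumors. Over the tested members the correlations were 0.979 to 0.996, and the lowest was between the PBS tumors. Without PBS tumor 1 the median over all 60 members was −0.11, without PBS tumor 2 −0.15, and without sEphB4-Alb tumor 1 or 2 −0.10. The median kept its sign in each case, and the unadjusted lower calls, which numbered 4 with all tumors, were 4, 8, 0 and 1 in the same order, against 3.37%, 11.6%, 0.569% and 0.694% of all genes tested. Each of these fits leaves 1 tumor in a group, which is assumed to vary like the other group, so that the p-values rest on the spread of the other pair alone.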

How the data were processed

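Intensities of the 18091 genes were used, deposited by the authors as a linear series value table whose lowest value per array was 92.1 to 100.4. No source used here states the software or normalization behind them. A second table has 8 value columns whose names match no single sample and was not used. Signals were corrected with normexp (offset 50), quantile-normalized and set on a log2 scale, in R 4.3.3 with limma 3.58.1. A gene was tested when both arrays of a group exceeded background (the mode plus 1.64 times the spread below it). The 2 sEphB4-Alb arrays were compared with the 2 PBS arrays by lmFit and eBayes, with Benjamini-Hochberg adjustment over all 10370 genes tested. The number of arrays limits the precision. Replicate numbers of the titles were not used to pair the samples in the main fit. Deviations of same-numbered samples from their group means had a correlation of 0.04, which is the same for both numbers by construction. This single value cannot show whether the samples were paired. The fit was also run on simulated data, with shifts larger than the fold change of any member. It does not show how often changes of the members' size would be found. Members and lists were chosen with earlier results of these data known. Named members were the 4 highest and 4 lowest of each subunit, the brightest and dimmest 3, stalk, X-linked and paralogous genes and their counterparts, and of other lists up to 2 genes at each end. Rps3, Rps24, Rps19, Rps15a, Eef1a1 and the markers were named after their values were seen. Of the members, 2 are counted but not reported here by name.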

Additional observations from a re-analysis of the deposited data

How the results depend on the processing

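The adjusted count stayed at 0 members under all 21 alternatives tried, and the members' median relative to that of all genes stayed below 0 wherever it was computed. Under the scalings that only shift arrays this relative median is the same by construction. Absolute values moved with scaling. With a common median the median over all 60 members was 0.17, with 1 higher and 0 lower at an unadjusted p under 0.05 (8.03% and 0.241% of all genes tested) and 17 and 2 apart upward and downward, and without normalization it was 0.50, with 6 and 0 (18.5% and 0.0386%), 38 and 0, and 2 members past 2-fold (10.9%). With the 75th percentile 2 were lower (4.32%) and 2 apart upward (11.5%). Without moderation 1 was higher, the exact Mann-Whitney-Wilcoxon test, which cannot go below 0.33, called 0, and a fold threshold of 1.5 gave 2. The share of all genes was not computed without moderation or at 1.5-fold, so those counts say nothing particular about the members. Leaving out a tumor gave 0 to 3 higher (3 without PBS replicate 1, 1 without PBS replicate 2; 4.73% and 10.8% of all genes tested), 0 to 8 lower (8 without PBS replicate 2, 0 without sEphB4-Alb replicate 1, 1 without sEphB4-Alb replicate 2) and 0 to 1 past 2-fold (1 without PBS replicate 1). The replicate block left the median at −0.13 and 4 members lower, with Rps6 in place of Rps13, and changed no adjusted call. The share of all genes was computed neither for this block nor for the 2-fold counts without a tumor. Those counts thus also say nothing particular about the members.

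Single genes that changed sign were near 0 or differed between replicates. Relative to the median gene, with a common median, a common 75th percentile or no normalization, Rpl3 was at 0.039, Rpl36a 0.065, Rpl39 0.18, Rpl3l −0.33 and Rplp1 −0.12. With cyclic loess Rpl39 was at 0.048, Rpl3l −0.000464 and Rplp1 −0.17. Leaving out a tumor gave a range whose ends were, without PBS replicate 2 and without PBS replicate 1, −0.90 to 0.17 for Rpl13a, −0.070 to 0.013 for Rpl41, −0.42 to 0.71 for Rpl24, −0.41 to 0.89 for Rpl7a, −0.031 to 0.20 for Rps15, −0.10 to 1.59 for Eif1b and −0.80 to 0.038 for the mitochondrial Mrpl9. In the reverse order it was −0.21 to 0.28 for Rpl3l, −0.65 to 0.80 for Rps3a and −0.11 to 0.038 for Rpl22l1. For Rpl39 it was −0.24 without sEphB4-Alb replicate 1 to 0.16 without sEphB4-Alb replicate 2. The causes were not tested. In all, 693 values of single genes kept their sign and 35 did not. The deposited value table as an alternative was not run because it is the source of the values used. Signals near background limit the 7 untested members.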
